A study of Mus musculus with 12 samples.

Results

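The genes described here encode the beta subunits of the proteasome. They were chosen by name, as the 7 constitutive subunits Psmb1, Psmb2, Psmb3, Psmb4, Psmb5, Psmb6 and Psmb7 and the 3 inducible subunits Psmb8, Psmb9 and Psmb10. These are 10 of the 12918 genes with a symbol in the data, and all 10 passed the filter on low values used for the tests. The data come from mouse CD4 T cells of the spleen, in 12 libraries that form 4 groups of 3: KI naive, KI activated, KIKO naive and KIKO activated. KI and KIKO are the only genotype names the labels give, and the gene that was altered, the strain and the age of the mice are not given in the sources used here. Activated cells had been stimulated for 16 h with beads that carry antibodies to CD3 and CD28, and naive cells had not. The titles of the KIKO activated samples leave out CD4, which their tissue label names. By its title, the series is about T cells whose proteasome works poorly, and the comparisons set the genotypes side by side in each state and the states side by side in each genotype. No label says whether replicates were separate animals, so the p-values measure only the spread between these libraries, which may be technical.

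The proteasome is a barrel of stacked rings that degrades proteins tagged with ubiquitin. The outer rings are made of alpha subunits and the inner rings of beta subunits, 3 of which are proteases: Psmb6 cuts after acidic residues, Psmb7 after basic residues and Psmb5 after hydrophobic residues. Psmb1, Psmb2, Psmb3 and Psmb4 are beta subunits without protease activity. Lymphocytes also make the inducible proteases Psmb9, Psmb10 and Psmb8, which take the places of Psmb6, Psmb7 and Psmb5 in newly built particles and form the immunoproteasome. The inducible genes are known targets of interferon-gamma, and the constitutive genes are known targets of the transcription factor NRF1, encoded by Nfe2l1, when proteasome activity falls.

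Levels are in FPKM, the fragments of a transcript divided by its length and by the depth of the library. Levels of different genes can thus be set side by side, but only roughly, since they also depend on the events listed. In KI naive 1, summed transcript starts and ends were 52.5 and 28.9 FPKM for Psmb4, and 20.1 and 0.32 for Psmb10. Ranks of genes and shares of partners carry this limit. Read numbers are not among the values, so no counting error can be given. The files list transcript events and no zeros, so a gene given as 0 is one that a library does not list. The libraries listed 9771 to 11102 loci, and KIKO naive 2 had the fewest event lines, 85319 against 100188 to 112679. Of 7 markers of T cells 5 have a locus. Cd3d, Cd3e, Cd3g and Cd4 were present in every library, with Cd4 between 86.4 and 221 FPKM, while Trac was not listed in 5 of the 12 libraries. Without Trac the markers summed to 961 to 1187 FPKM in KI naive, 734 to 811 in KIKO naive, 773 to 859.8 in KI activated and 385 to 603 in KIKO activated libraries. Markers of myeloid cells, 5 of 7 with a locus, summed to 206 FPKM in KIKO naive 2 and 168 in KIKO activated 2. In KI libraries this sum was at most 0.949 FPKM, and in the other KIKO libraries it was 1.26 in KIKO naive 1, 0.875 in KIKO naive 3, 6.62 in KIKO activated 1 and 0.039 in KIKO activated 3. In KIKO naive 2 the sum came mainly from S100a9 at 110.2 FPKM, while Csf1r, which marks macrophages, was not listed there. The markers of B cells, dendritic cells and erythroid cells summed to at most 2.78, 1.38 and 1.56 FPKM in any library, and those of natural killer cells to 9.01 and 9.53 FPKM in the same 2 KIKO libraries. Those of CD8 T cells, nearly all of it Cd8b1, summed to 6.51 to 8.12 FPKM in KI naive and 12.6 to 16.1 in KIKO naive, then 11.1 to 12.9 in KI activated and 8.67 to 10.3 in KIKO activated libraries, so the genotypes did not overlap in either state. The part of these sums in the results was not tested. Markers of activation summed to 16.2 to 21.7 FPKM in naive and 474 to 775 in activated libraries. Each count of members below was also made without KIKO naive 2 and KIKO activated 2, called here the libraries with myeloid markers, an alternative added after the data were seen. In bulk RNA, fewer cells of a type and less RNA per cell cannot be told apart.

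The sequences shown here belong to members whose levels are described below. The first is the junction of the 2 leading exons of Psmb5, because these exons separated the genotypes. It is read from the GENCODE M21 transcript, with 60 bases on each side of the junction, lower case for exon 1 and capitals for exon 2:
Psmb5 junction: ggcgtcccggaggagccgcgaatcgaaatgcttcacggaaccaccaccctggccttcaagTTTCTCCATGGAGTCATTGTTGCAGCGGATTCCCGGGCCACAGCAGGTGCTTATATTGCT
The others are promoter stretches, since the constitutive members other than Psmb5 moved together. They are taken from the RefSeq windows of 250 bases before a gene's start (GRCm38.p6), with bases of annotated exons left out. Such a window was found for 7 of the 10 members, all but Psmb1, Psmb2 and Psmb7. Capitals mark the core of the antioxidant response element, TGACNNNGC searched on both strands, the sequence that NRF1 and its relative NRF2 bind:
Psmb5, chr14:54618023-54618245, minus strand: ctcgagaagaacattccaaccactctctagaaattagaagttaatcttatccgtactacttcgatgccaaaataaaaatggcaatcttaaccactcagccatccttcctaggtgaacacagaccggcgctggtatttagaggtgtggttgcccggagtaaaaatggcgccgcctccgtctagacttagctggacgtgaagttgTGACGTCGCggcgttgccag
Psmb6, chr11:70525107-70525356, plus strand: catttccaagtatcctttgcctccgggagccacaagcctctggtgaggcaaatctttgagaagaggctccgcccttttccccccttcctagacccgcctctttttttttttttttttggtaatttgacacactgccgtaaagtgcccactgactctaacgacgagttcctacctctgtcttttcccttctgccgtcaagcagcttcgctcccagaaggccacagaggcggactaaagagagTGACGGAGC
Psmb3, chr11:97703184-97703398, plus strand: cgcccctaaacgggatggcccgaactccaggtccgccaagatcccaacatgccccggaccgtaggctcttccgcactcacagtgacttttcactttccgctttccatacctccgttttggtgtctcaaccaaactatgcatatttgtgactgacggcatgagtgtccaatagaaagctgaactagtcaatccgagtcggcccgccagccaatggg
Psmb4, chr3:94886962-94887208, minus strand: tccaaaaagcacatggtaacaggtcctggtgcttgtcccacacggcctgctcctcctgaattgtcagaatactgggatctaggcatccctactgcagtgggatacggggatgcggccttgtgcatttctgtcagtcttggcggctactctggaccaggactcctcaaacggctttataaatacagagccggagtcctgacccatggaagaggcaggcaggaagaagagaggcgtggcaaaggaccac
The core occurred at position -47 before the start of Psmb5, as TGACGTCGC, and at -9 before that of Psmb6, as TGACGGAGC. It was found in 2 of the 7 windows, against 10.2% of all 32851 windows in the table. This and the next search covered all 250 bases of each window, whereas the stretches printed above are shorter where an exon was left out. An NF-kB element, searched as GGG, any 5 bases and CC, matched the windows of Psmb3, Psmb6 and Psmb9 and 45.8% of all windows. These matches describe the letters of the windows and say nothing of binding in these cells.

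Psmb5, the protease that cuts after hydrophobic residues, had the largest difference between genotypes of the 10 members in both states. Its locus carries the name Mir686 in the data and lies at chr14:54851450-54855479 on the minus strand (GRCm39). The exon lengths of 229 and 307 bp are those of Psmb5, and this match was made with the values known. In KI naive cells Psmb5 stood at 43.9, 42.9 and 43.9 FPKM. KI activated cells had 115, 125 and 141 FPKM. Neither KIKO naive 1 nor KIKO naive 2 listed it, KIKO naive 3 had 2.95 FPKM, and the KIKO activated libraries had 4.90, 35.0 and 4.36 FPKM. Every KIKO library thus lay below every KI library of the same state. The highest KIKO library, KIKO activated 2, was also the activated library with myeloid markers, which summed to 168 FPKM. KIKO naive 2, where they summed to 206 FPKM, did not list Psmb5. The part of these markers in the level of Psmb5 was not tested. On the log2(FPKM + 1) scale, on which all differences are given here, Psmb5 fell by 4.82 ± 0.65 (SE) in naive KIKO cells (limma adjusted p = 9.7e-04). This size depends on the pseudocount, since 2 libraries do not list the gene, and was -7.13 with a pseudocount of 0.1 and -3.06 with a pseudocount of 5. In activated KIKO cells it fell by 3.61 ± 0.65 (limma adjusted p = 8.9e-04), and without KIKO activated 2 the difference was -4.50 (limma adjusted p = 4.3e-05). The adjusted p-values here and below are two-sided limma tests over all 9743 loci tested, with 3 libraries a group, and a gene is called at an adjusted p under 0.05.

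The exons shown by the junction sequence above were not listed alike within Psmb5. In KI libraries the first exon (chr14:54855251-54855479) and the second (chr14:54853972-54854278) had nearly equal values, 43.9 and 42.8 FPKM in KI naive 1. In KIKO naive 3 and KIKO activated 3 only the first exon was listed, at 2.95 and 4.36 FPKM, without the second or the last exon. KIKO activated 1 listed all 3 exons at 4.90 FPKM. KIKO activated 2 listed the first exon at 35.0 FPKM and the second and last at 29.1 FPKM. The last exon of the locus (chr14:54851450-54851938) is 489 bp long in the data, a length that no annotated Psmb5 exon has in GENCODE M21. These events were picked after their values were seen and were not tested.

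**Figure D1:**
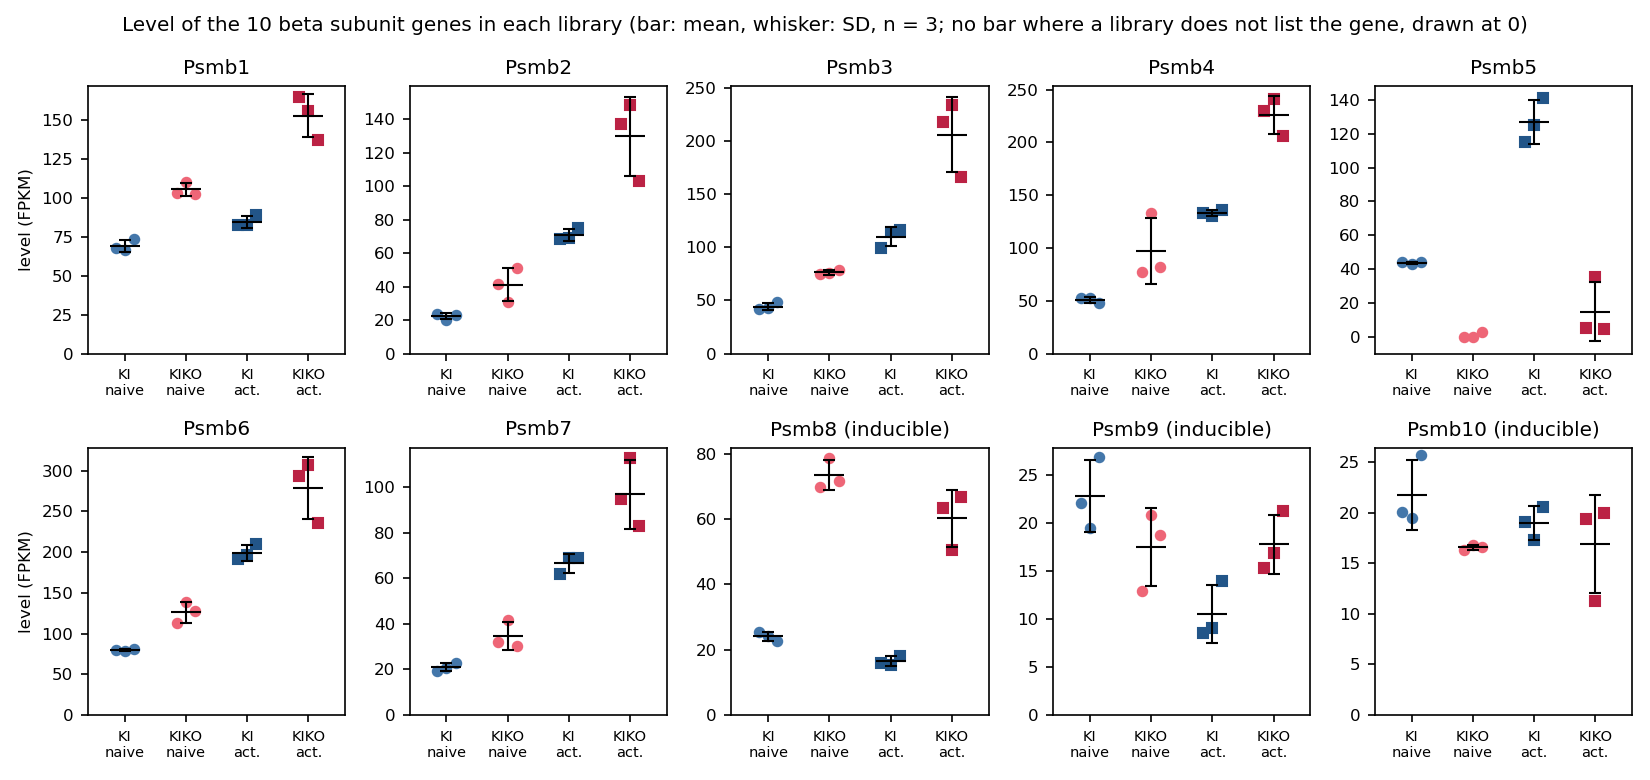
Level in FPKM of each of the 10 beta subunit genes (y axis, linear, its own range for each gene) in the 12 libraries, by group on the x axis. Points are libraries, bars means and whiskers SD. In the panels of the constitutive genes other than Psmb5 the KI naive libraries are lowest and the KIKO activated libraries highest, while Psmb5 is at most 35.0 FPKM in KIKO libraries and Psmb8 is high only in KIKO libraries.

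The other constitutive proteases, Psmb6 and Psmb7, were higher in KIKO cells than in KI cells and higher in activated than in naive cells. Psmb6 (chr11:70416212-70418684, plus strand, GRCm39) had 80.1, 78.5 and 80.6 FPKM in KI naive libraries and 113, 138 and 127 in KIKO naive libraries. The KI activated libraries had 191, 197 and 210.2 FPKM and the KIKO activated libraries 293, 307 and 236. No library of one group overlapped another, and Psmb6 had the highest level of the 10 members in each of the 4 groups. Psmb7 (chr2:38478048-38534099, minus strand) had 19.4, 20.7 and 22.8 FPKM in KI naive and 32.1, 41.7 and 30.5 in KIKO naive libraries. The KI activated libraries had 62.0, 69.0 and 69.1 FPKM of Psmb7 and the KIKO activated libraries 95.0, 113 and 82.8. Its 4 groups did not overlap either. In KI naive cells its mean of 20.96 ± 1.74 FPKM (SD, n = 3) was the lowest of the 10, but Psmb2 and the 3 inducible genes, with means of 21.8 to 24.0 FPKM, had ranges that overlapped its own.

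The 4 subunits without protease activity showed the same order, apart from Psmb1. Psmb2 (chr4:126571423-126603507, plus strand) had 23.6, 20.3 and 23.0 FPKM in KI naive and 41.6, 30.9 and 50.9 in KIKO naive libraries. It had 68.3, 69.1 and 74.7 FPKM in KI activated and 137, 148 and 103 in KIKO activated libraries. Its groups did not overlap, and the KIKO groups were the more scattered, with an SD of 10.0 and 23.5 FPKM against 1.78 and 3.49 in the KI groups. Psmb3 (chr11:97594225-97604326, plus strand) had 41.9, 42.5 and 48.3 FPKM in KI naive and 74.4, 75.5 and 79.0 in KIKO naive libraries. After stimulation Psmb3 had 99.4, 114 and 116 FPKM in KI and 218, 234 and 166 in KIKO libraries, again with no overlap.

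Psmb4 (chr3:94791404-94794272, minus strand) had 52.5, 52.7 and 47.8 FPKM in KI naive and 76.9, 133 and 81.5 in KIKO naive libraries. Its KI activated libraries had 133, 130.2 and 136 FPKM and its KIKO activated libraries 230.04, 241 and 206. KIKO naive 2, the library with the fewest event lines, reached the range of the KI activated group, so for Psmb4 these neighbours in the order overlapped. Without it the naive difference between genotypes was 0.63 (limma adjusted p = 0.0030). Psmb1 (chr17:15693604-15720013, minus strand) differed in its order. It had 67.6, 66.4 and 73.6 FPKM in KI naive and 82.6, 82.4 and 89.1 in KI activated libraries, both below the KIKO naive libraries at 103, 110.5 and 103. The KIKO activated libraries had the most Psmb1, 165, 156 and 138 FPKM. Among the constitutive members Psmb1 thus alone had a higher mean in naive KIKO cells than in stimulated KI cells.

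In naive cells 7 of the 10 members were higher in KIKO than in KI cells and 1 was lower, against 6.46% higher and 3.90% lower (10.4% in all) among all loci. The 6 constitutive members other than Psmb5 were all higher, by 0.60 ± 0.09 for Psmb1 to 0.87 ± 0.16 for Psmb4, with a median of 0.73 against 0.047 over all loci. Psmb2 was higher by 0.83 ± 0.17, Psmb3 by 0.78 ± 0.12, Psmb6 by 0.65 ± 0.11 and Psmb7 by 0.69 ± 0.13 (limma adjusted p = 0.0103 for Psmb2, the largest of the 6, and 0.00175 for Psmb1, the smallest). The called members were also 7 higher and 1 lower without both libraries with myeloid markers. Of all 9743 loci 521 were higher and 334 lower in that setting. With only the 6 naive libraries in the fit, Psmb2 and Psmb4 missed the threshold (limma adjusted p = 0.0545 and 0.0676), and Psmb4 missed it on summed transcript ends (0.67, limma adjusted p = 0.0967).

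In activated cells 8 of 10 members were higher in KIKO than in KI cells and 1 was lower, against 20.7% higher and 19.3% lower (40.0% in all) among all loci. The same 6 constitutive members were higher, by 0.47 ± 0.11 for Psmb6 to 0.89 ± 0.12 for Psmb3, with a median of 0.80 against 0.040 over all loci. The 4 subunits without protease activity had differences of 0.84 ± 0.09 for Psmb1, 0.85 ± 0.17 for Psmb2, 0.89 ± 0.12 for Psmb3 and 0.76 ± 0.16 for Psmb4. The proteases Psmb6 and Psmb7 had 0.47 ± 0.11 and 0.52 ± 0.13. For these 6 members the limma adjusted p lay between 2.1e-05 for Psmb1 and 0.00853 for Psmb7. Without both libraries with myeloid markers the count was again 8 higher and 1 lower, beside 2186 higher and 1969 lower of all 9743 loci. Calls for the members thus kept their number in both states when those libraries were left out.

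**Figure D2:**
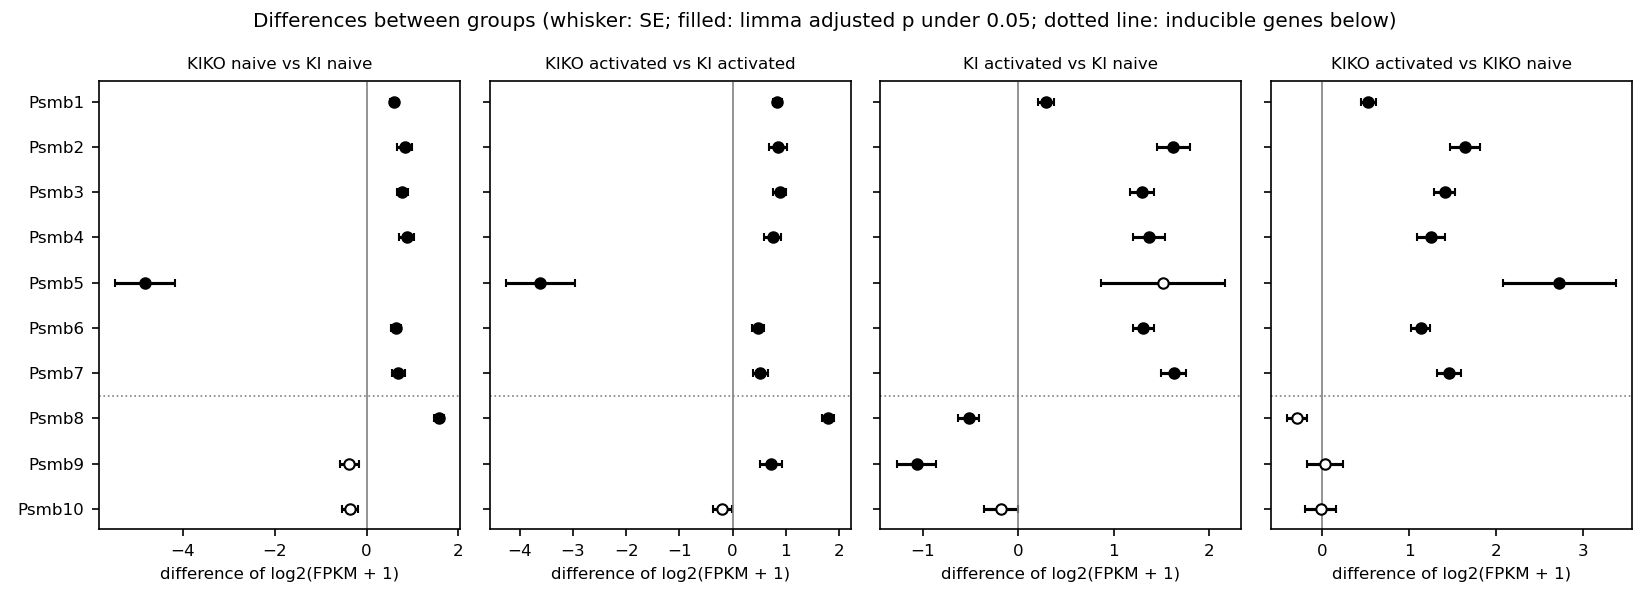
Difference in log2(FPKM + 1) for each member (rows) in the 4 comparisons of pairs of groups (panels, each with its own x range), with its SE as whisker. Filled points have a limma adjusted p under 0.05. The inducible genes are below the dotted line. Psmb5 lies at -4.82 and -3.61 in the genotype panels, and Psmb8 at 1.57 and 1.80.

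Stimulation raised the 6 constitutive members other than Psmb5 in both genotypes. In KI cells 6 of 10 members were higher after 16 h and 2 were lower, against 32.2% higher and 29.5% lower (61.7% in all) among all loci. Psmb2, Psmb3, Psmb4, Psmb6 and Psmb7 rose by 1.62 ± 0.17, 1.30 ± 0.12, 1.37 ± 0.16, 1.31 ± 0.11 and 1.63 ± 0.13. Psmb1 rose less, by 0.29 ± 0.09 (limma adjusted p = 0.0128). This value for Psmb1 turned to -0.015 after quantile normalization and missed the threshold after rescaling to an equal sum (0.14, limma adjusted p = 0.108) and without KI naive 2 (0.26, limma adjusted p = 0.0501). Psmb5 had a difference of 1.52 ± 0.65 that missed the threshold (limma adjusted p = 0.0590), although its KI groups did not overlap. In that fit its spread is shared with the scattered KIKO libraries, and with the 6 KI libraries alone the limma adjusted p was 1.3e-05. Without both libraries with myeloid markers Psmb5 was also called (limma adjusted p = 0.0047), and the count was 7 higher and 2 lower. More loci were called there in all, 3287 higher and 3065 lower of 9743, against 3134 and 2878 in the main fit.

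In KIKO cells 7 of 10 members were higher after stimulation and 0 were lower, against 25.1% higher and 22.2% lower (47.3% in all) among all loci. The 7 were the constitutive members, with differences from 0.53 ± 0.09 for Psmb1 to 1.64 ± 0.17 for Psmb2 and 2.72 ± 0.65 for Psmb5 (limma adjusted p = 0.00447 for Psmb5). The size for Psmb5 moved with the pseudocount, from 4.88 with 0.1 to 1.41 with 5, because 2 KIKO naive libraries do not list it. Without both libraries with myeloid markers Psmb5 had 1.501 (limma adjusted p = 0.0267), and the count was again 7 higher and 0 lower. Of all 9743 loci 1971 were higher and 1627 lower in that setting. Psmb3, Psmb4, Psmb6 and Psmb7 rose by 1.41 ± 0.12, 1.25 ± 0.16, 1.13 ± 0.11 and 1.45 ± 0.13. The median of the 6 constitutive members other than Psmb5 was 1.33 in KIKO and 1.34 in KI cells, with all loci at 0.0043 and -0.0058. The comparisons of the 2 genotypes share no library with each other here, but each shares its groups with the genotype comparisons above. None of the 7 constitutive members was called for a difference in response between genotypes, against 20.6% of all loci. At an unadjusted p under 0.05 the count was also 0, but the share of all loci at that threshold was not counted. With only 7 members these counts do not show that the responses were equal. Psmb1 had a difference in response of 0.24 ± 0.12 (limma adjusted p = 0.199). For Psmb1 this difference was 0.38 and called after quantile normalization (limma adjusted p = 0.0245).

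Psmb8, the inducible partner of Psmb5, was the member most raised in KIKO cells. Its locus is at chr17:34416355-34420428 on the plus strand (GRCm39). In KI naive libraries Psmb8 had 25.3, 24.1 and 22.7 FPKM, and in KIKO naive libraries 69.8, 78.7 and 71.7. KI activated libraries had 16.1, 15.2 and 18.2 FPKM and KIKO activated libraries 63.4, 50.4 and 66.7. All 6 KIKO libraries lay above all 6 KI libraries, and within each genotype the activated libraries lay below the naive ones. Psmb8 was higher in KIKO cells by 1.57 ± 0.11 when naive (limma adjusted p = 7.9e-06) and by 1.80 ± 0.11 when activated (limma adjusted p = 6.2e-07), a ratio of group means of 3.05 and 3.65. Stimulation lowered Psmb8 by 0.52 in KI cells (-0.52 ± 0.11, limma adjusted p = 0.00151). In KIKO cells its difference was -0.29 ± 0.11 (limma adjusted p = 0.0502), and this was called in several of the settings tried, such as rescaling to an equal sum (-0.40) and quantile normalization (-0.39). The 2 responses were not called as different (0.23 ± 0.16, limma adjusted p = 0.336).

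Psmb9, the inducible partner of Psmb6, lies beside Psmb8 at chr17:34399925-34406738 on the minus strand. It had 22.1, 19.5 and 26.9 FPKM in KI naive and 13.0, 20.9 and 18.8 in KIKO naive libraries, which overlap. KI activated libraries had 8.50, 9.03 and 13.998 FPKM and KIKO activated libraries 15.3, 16.9 and 21.2. After stimulation the lowest KIKO library was thus above the highest KI library. Psmb9 fell on stimulation in KI cells by 1.07 ± 0.21 (limma adjusted p = 7.8e-04), while in KIKO cells its difference was 0.03 ± 0.21 (limma adjusted p = 0.908). The difference between these responses was 1.10 ± 0.30 (limma adjusted p = 0.0216), which made Psmb9 the only member called among the 10, against 8.99% of all loci in that direction, 11.6% in the other and 20.6% in either. This call was lost without KI naive 3 (0.98, limma adjusted p = 0.0501) and without KI activated 2 (1.02, limma adjusted p = 0.0564), and over all settings the adjusted p ran from 0.00782 to that last value. In activated cells Psmb9 was higher in KIKO by 0.73 ± 0.21 (limma adjusted p = 0.0155). That call was lost without KI activated 1, KI activated 2 or KIKO activated 3 (limma adjusted p = 0.0609, 0.0604 and 0.0630). In naive cells the difference was -0.38 ± 0.21 and was not called (limma adjusted p = 0.279).

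Psmb10, the inducible partner of Psmb7, was called in no comparison. It lies at chr8:106658635-106665076 on the minus strand and had 20.1, 19.5 and 25.7 FPKM in KI naive and 16.3, 16.8 and 16.6 in KIKO naive libraries. KI activated libraries had 19.1, 17.3 and 20.6 FPKM and KIKO activated libraries 19.3, 11.3 and 20.003. The naive groups did not overlap, but the activated ones did, and the lowest library was KIKO activated 2. Psmb10 had differences of -0.36 ± 0.18 and -0.20 ± 0.18 between genotypes in naive and activated cells (limma adjusted p = 0.225 and 0.416) and of -0.18 ± 0.18 and -0.02 ± 0.18 for stimulation in KI and KIKO cells. Without KIKO activated 2 the activated genotype difference was 0.052. The inducible genes thus did not move as a set: in naive KIKO cells Psmb8 was higher while Psmb9 and Psmb10 had negative differences that were not called.

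The share of the inducible gene in each pair of partners was computed as its level over the summed level of both. For Psmb8 with Psmb5 the share was 36.6%, 36.0% and 34.1% in KI naive and 12.2%, 10.8% and 11.4% in KI activated libraries. In KIKO naive 1 and 2, which do not list Psmb5, Psmb8 made up the whole of the pair, and KIKO naive 3 had 96.1%. The KIKO activated libraries had 92.8%, 59.0% and 93.9%. The shares of all KIKO libraries thus lay above those of all KI libraries. Over both states the KIKO share was higher by 66.8 percentage points (exact permutation test within states, two-sided p = 0.005, adjusted p = 0.006 over 6 such tests). With Psmb5 absent or low in KIKO libraries, the share is high there at almost any level of Psmb8. It thus restates the differences of Psmb5 and Psmb8 given above and is no separate result. The smallest p this design allows is 0.005, while 3 against 3 libraries alone cannot go below 0.1. On stimulation the share changed by -20.4 points over both genotypes (exact permutation p = 0.005, adjusted p = 0.006). With each library left out this change ranged from -23.4 to -14.7 points.

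The other pairs went the opposite way with genotype or not beyond the threshold. For Psmb10 with Psmb7 the share was 50.8% ± 2.22 (SD, n = 3) in KI naive, 32.6% ± 3.39 in KIKO naive, 22.2% ± 1.87 in KI activated and 15.2% ± 5.39 in KIKO activated libraries. It was lower in KIKO cells by -12.6 points, -18.2 when naive and -7.02 when activated (exact permutation p = 0.005, adjusted p = 0.006), and lower on stimulation by -23.0 points (exact permutation p = 0.005, adjusted p = 0.006). On summed transcript ends, where Psmb10 is hardly listed, these differences were 0.296 and -2.002 points and neither was called. For Psmb9 with Psmb6 the share was 22.2% ± 2.63 in KI naive, 12.1% ± 1.54 in KIKO naive, 4.97% ± 1.11 in KI activated and 6.14% ± 1.84 in KIKO activated libraries. The difference between genotypes was -10.1 points in naive and 1.18 points in activated cells, -4.45 over both (exact permutation p = 0.08, adjusted p = 0.08). Stimulation changed this share by -11.6 points (exact permutation p = 0.005, adjusted p = 0.006). All 3 inducible shares were thus lower after stimulation. A share also falls when the constitutive partner rises, so this is not a fall of all inducible genes. In KI and KIKO cells Psmb7 rose by 1.63 and 1.45, while Psmb10 had -0.18 and -0.02 and was not called. Psmb6 rose by 1.31 and 1.13, while Psmb9 had -1.07 and 0.03. The results of these 6 tests stayed on their side of the threshold without both libraries with myeloid markers, where the genotype difference for Psmb8 with Psmb5 was 72.2 points.

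**Figure D3:**
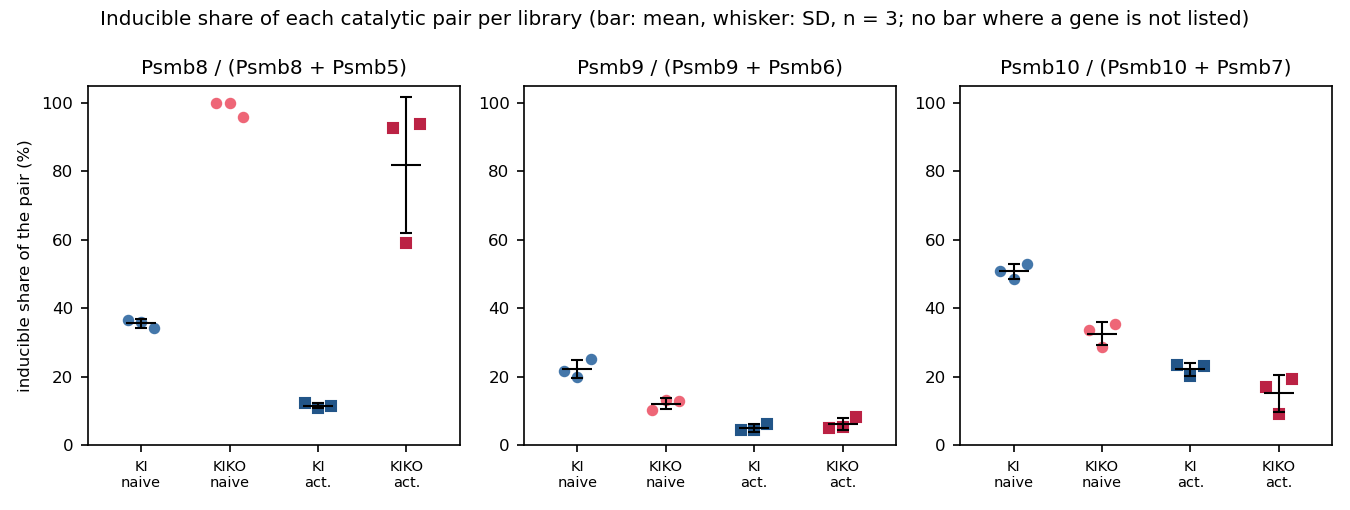
Inducible share of each pair of partner genes in percent (y axis) in the 12 libraries, by group on the x axis. Points are libraries, bars means and whiskers SD. The share of Psmb8 is at least 59.0% in every KIKO library and at most 36.6% in every KI library, while the share of Psmb10 is lower in KIKO naive than in KI naive libraries.

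The data also give levels of single exons, and Psmb8 and Psmb9 each had an exon form that was listed in more KI than KIKO libraries. These were picked after their values were seen and were not tested. The penultimate exon of Psmb8 is 205 bp long in the annotation (chr17:34419685-34419889). That exon had 11.8, 17.2 and 14.1 FPKM in KI naive and 55.3, 59.9 and 60.9 in KIKO naive libraries, then 9.65, 8.58 and 11.3 in KI activated and 55.4, 37.4 and 59.2 in KIKO activated libraries. A form of it extended to 471 bp (chr17:34419419-34419889), a length no annotated Psmb8 exon has in GENCODE M21, was listed in all 6 KI and in 0 of 6 KIKO libraries. It had 6.00, 4.12 and 0.69 FPKM in KI naive and 2.32, 2.05 and 2.75 in KI activated libraries. Of both forms together the extended one made up 4.64% to 33.7% in KI naive and 19.3% to 19.6% in KI activated libraries. The libraries that did not list the extended exon were thus those with the higher level of Psmb8. The share of a retained intron in Psmb8 did not separate the genotypes, at 24.0% ± 12.3 in KI naive, 18.4% ± 3.91 in KIKO naive, 25.1% ± 3.604 in KI activated and 15.5% ± 8.14 in KIKO activated libraries, with overlapping ranges.

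Psmb9 had a longer start exon of 707 bp (chr17:34406032-34406738), again of no annotated length, beside its main start exon of 116 bp (chr17:34406224-34406339). The longer form had 2.46, 2.62 and 12.8 FPKM in KI naive and 0.46, 0.79 and 2.28 in KI activated libraries. It was not listed in KIKO naive 1 or in any KIKO activated library, and had 3.73 and 2.29 FPKM in KIKO naive 2 and 3, so the naive groups overlapped. The main start exon had 17.6, 13.4 and 11.9 FPKM in KI naive and 9.82, 14.7 and 13.2 in KIKO naive libraries, and 6.79, 5.86 and 10.1 in KI activated and 13.3, 14.9 and 18.0 in KIKO activated libraries. On this exon alone, too, the KIKO activated libraries lay above the KI activated ones.

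**Figure D4:**
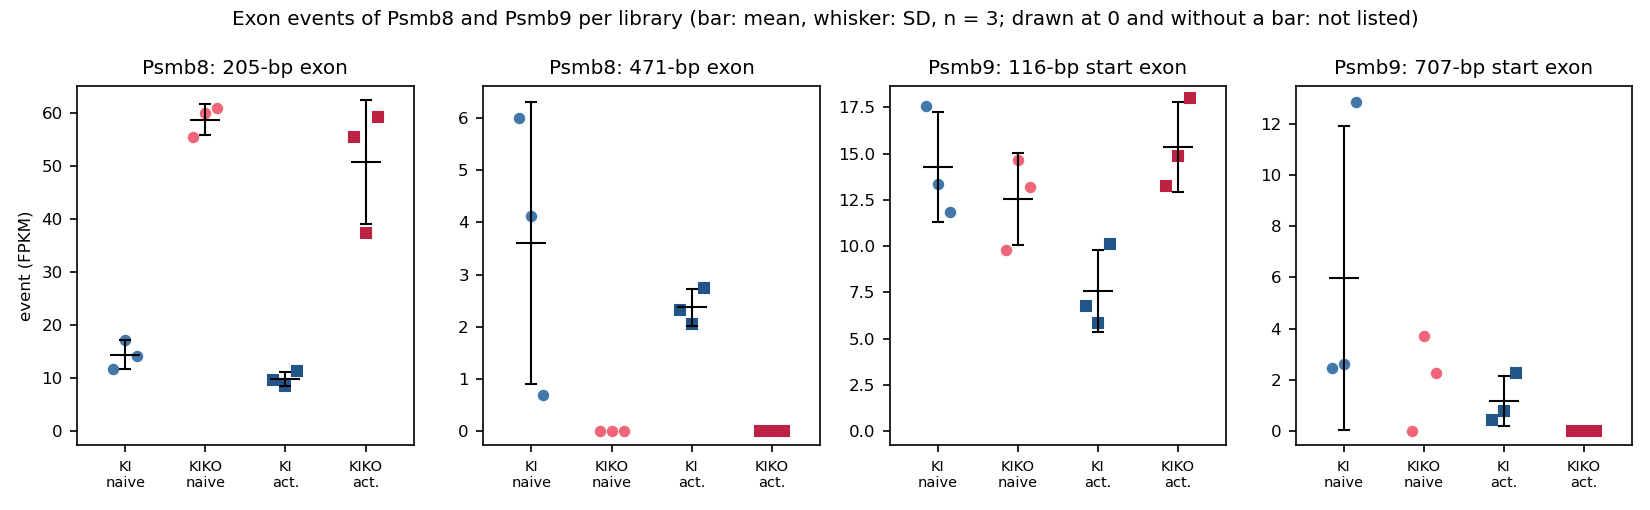
Level in FPKM (y axis, linear, its own range in each panel) of 2 forms of the penultimate exon of Psmb8 and 2 start exons of Psmb9 in the 12 libraries, by group on the x axis. Points are libraries, bars means and whiskers SD. The 471-bp exon of Psmb8 has values above 0 only in KI libraries, and the 707-bp exon of Psmb9 is not listed in the 3 KIKO activated libraries.

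The partner rings of the particle went with the constitutive beta subunits. All 7 genes of the alpha ring were higher in naive KIKO cells and 6 of 7 in activated KIKO cells, with medians of 1.25 and 0.81. Among all loci 6.46% were higher in naive and 20.7% in activated KIKO cells. Psma5, a subunit of that ring, had 26.3 ± 3.33 FPKM (SD, n = 3) in KI naive, 64.5 ± 3.89 in KIKO naive, 92.6 ± 11.0 in KI activated and 219 ± 47.2 in KIKO activated libraries. Of the base of the 19S cap, which unfolds substrates, all 9 genes with a locus were higher in both states, and of the lid of that cap, which removes ubiquitin, 5 of 8 in each. On stimulation all tested genes of the alpha ring, base and lid were higher in both genotypes, against 32.2% of all loci in KI and 25.1% in KIKO cells. Assembly chaperones did not follow: of 4 tested, only Pomp, which brings beta subunits into place, was higher in naive KIKO cells (0.67 ± 0.17, limma adjusted p = 0.0252), a call lost without KI naive 1, KI naive 2 or KIKO naive 2 (limma adjusted p = 0.0937, 0.0820 and 0.0699). It was also lost without both libraries with myeloid markers and with only the naive libraries in the fit (limma adjusted p = 0.0590 and 0.106). In activated KIKO cells Psmg2, Psmg3 and Psmg4 were lower, against 19.3% of all loci, and Pomp was not called (0.13, limma adjusted p = 0.571). Psmg2 had 31.3 ± 5.34 FPKM in KI activated and 15.3 ± 1.64 in KIKO activated libraries (-0.98 ± 0.20, limma adjusted p = 0.00229), whereas the calls for Psmg3 and Psmg4 were lost in several settings.

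Of 12 genes around NRF1, 3 were higher and 0 lower in naive KIKO cells, and 9 were higher and 0 lower in activated KIKO cells, with medians of 0.12 and 0.74, against 6.46% and 20.7% of all loci higher. On summed transcript ends 4 of the 8 genes tested were higher in activated cells, where 1159 of all 6485 loci were higher. After rescaling to an equal sum 5 of 12 were higher in naive cells, where 1117 of all 9743 loci were higher. The 3 in naive cells were Vcp, which pulls NRF1 out of the membrane, Ogt and Keap1. The call for Ogt was lost with only the naive libraries in the fit and without KI naive 3 or KIKO naive 3 (limma adjusted p = 0.0580, 0.0672 and 0.0575). Nfe2l1 itself was not called in naive cells (13.9 ± 0.223 against 15.2 ± 0.328 FPKM, limma adjusted p = 0.584), but was higher in activated KIKO cells (18.8 ± 0.896 against 27.6 ± 5.21 FPKM, 0.51 ± 0.12, limma adjusted p = 0.00443). Nfe2l2, which encodes NRF2, was also higher there, by 0.98 ± 0.11 (limma adjusted p = 4.5e-05). Of 11 interferon-gamma pathway genes, 0 were higher and 1, Ifngr1, was lower in naive KIKO cells, against 6.46% and 3.90% of all loci. In activated KIKO cells 7 of the 11 were higher and 0 lower, against 20.7% of all loci higher. The median of the 11 was 0.75 there, against -0.19 in naive cells. On summed transcript ends 4 of the 6 tested were higher in activated cells, beside 1159 of all 6485 loci. Irf1, an activator of the inducible subunits, had 38.7 ± 6.28 FPKM in KI naive, 33.6 ± 2.52 in KIKO naive, 17.3 ± 4.90 in KI activated and 71.9 ± 14.4 in KIKO activated libraries. Its difference between genotypes was -0.19 ± 0.19 in naive cells, which was not called (limma adjusted p = 0.576), and 2.00 ± 0.19 in activated cells (limma adjusted p = 1.1e-05).

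Of 9 genes of antigen presentation on MHC class I with a locus, 0 were higher and 2, B2m and H2-D1, were lower in naive KIKO cells. Among all loci 6.46% were higher and 3.90% lower there. After quantile normalization neither was called (limma adjusted p = 0.0957 for B2m and 0.34 for H2-D1). B2m was also lost with only the naive libraries in the fit (limma adjusted p = 0.0568). H2-D1 was lost without KI naive 1, KI naive 3 or KIKO naive 2, and without both libraries with myeloid markers (limma adjusted p = 0.0508, 0.0581, 0.0562 and 0.0533). In activated KIKO cells Tap1 and Tap2, which carry peptides made by the proteasome into the endoplasmic reticulum, were higher, and Calr and Erap1 were lower. These 4 of 9 stand beside 40.0% of all loci called in that comparison. After quantile normalization all 9 were called, 7 higher and 2 lower, beside 3711 of all 9743 loci called. The call for Erap1 was lost after rescaling to an equal sum and without KI activated 3 (limma adjusted p = 0.117 and 0.0670). Tap1, whose gene adjoins Psmb9, had 34.4 ± 4.13 FPKM in KI activated and 91.1 ± 10.9 in KIKO activated libraries (1.38 ± 0.11, limma adjusted p = 4.1e-06). The list of activator caps also holds Psmf1, which is named as a proteasome inhibitor subunit and not as an activator. Of its 4 genes tested, Psme1 was lower in naive KIKO cells, against 3.90% of all loci. In activated KIKO cells Psme4 was higher and Psme1 and Psmf1 were lower, against 20.7% and 19.3% of all loci. The calls for Psme1, Psmf1 and Ifngr1 were lost in several settings and turned direction on summed transcript ends. The sum of myeloid markers was above that of every KI library in 4 of 6 KIKO libraries, and its part in these lists was not tested beyond leaving out the 2 with the highest sums.

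Across all 12 libraries the mean profile of the 6 constitutive members other than Psmb5 was most like those of other proteasome genes. By Pearson's r of log2(FPKM + 1), given as a description of libraries that share groups, the 5 closest of 6411 loci were Psmd12 (0.996), Psma5 (0.995), Psmd14 (0.992), Psmd6 (0.992) and Psmd2 (0.991). Psmb5 stood at r = -0.04 to this profile. Among the 5 loci closest to Psmb8, of 6416, were Fam219a (0.982), Nckap1 (0.980), Snrnp48 (0.976) and Togaram1 (0.976), none of the 5 a proteasome gene, and Psmb5 was near the opposite end at -0.93. Psmb8 had an r of 0.39 with Psmb9 and -0.40 with Psmb10. For the mean of Psmb9 and Psmb10 the closest of 6415 loci were Mpnd (0.885), Acaa1a (0.858), Nmi (0.845), Snora68 (0.844) and Fam149b (0.839).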

How the data were processed

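RNA of 12 libraries was measured as poly(A) RNA from 15 ng of total RNA with a stranded kit, per the labels' protocols. Reads were handled with FastQC 0.11.9, cutadapt 2.9 and HISAT2 2.2.0, per the submitters' processing notes, which name both GRCm39 and mm10. The coordinates in the files are GRCm39, and the caller of the events is not stated in the sources. The authors deposited FPKM per transcript event, 1 file per library, so depth is unknown. Repeated events were dropped, and the level of a locus was the largest of its summed starts, summed ends and largest event. For Psmb5 only events within its span counted. log2(FPKM + 1) of 9743 loci with at least 1 FPKM in at least 3 libraries was fitted with limma 3.58.1 (R 4.3.3), a mean per group and an intensity trend, and adjusted by Benjamini-Hochberg over all loci. The fit was tested on simulated data. Partner shares were compared by exact permutation within strata. All members were named. Of 8 lists with 73 genes, up to 4 genes a list with the smallest p, genes called against their list and a few regulators could be named, and some list genes in small counts were named after their values were seen. Values of some single genes are not reported here. Members and lists were chosen with earlier results of these data known. Alternatives changed the pseudocount, filter, scaling, level, fit and libraries.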

Additional observations from a re-analysis of the deposited data

Results flagged for a closer look

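The 3 genes flagged here are Psmb9, Irf1 and Tap1, whose response to stimulation differed between genotypes by a test of the interaction. They are not the only ones, as 8.99% of all loci were called higher and 11.6% lower there. Called higher were 7 of 11 interferon-gamma pathway genes, 4 of 9 of MHC class I (1 lower) and 3 of 12 around NRF1. Called lower were 2 of 4 assembly chaperones and 2 of 8 lid genes, and the other lists had no call. For Psmb9 the difference was 1.10 on the log2(FPKM + 1) scale: its KI activated mean was 10.5 FPKM against 22.8 in KI naive cells, and its KIKO means were 17.8 and 17.5 FPKM. For Irf1 it was 2.19 and for Tap1 1.23 (limma adjusted p = 4.8e-04 and 6.3e-04). Both fell in KI cells (-1.13 and -0.77) and rose in KIKO cells (1.06 and 0.46). The value for Tap1 was no longer called on summed transcript ends (0.80, limma adjusted p = 0.0926), and its rise in KIKO cells was 0.02 there. Without both libraries with myeloid markers that rise was 0.37 and missed the threshold (limma adjusted p = 0.0523). T cell markers without Trac summed to less in KIKO activated than in KI activated libraries (385 to 603 against 773 to 859.8 FPKM), and the part of this in these 3 differences was not tested.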

How the results depend on the processing

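The number of members called stayed within 1.5 times its value under every setting in the 4 comparisons of pairs of groups, and leaving out each library gave 8 to 8 in naive and 8 to 9 in activated genotype comparisons, 7 to 9 for KI and 7 to 8 for KIKO stimulation. In that order, all loci called with a library left out numbered 498 to 1169, 3059 to 4254, 5371 to 6303 and 3599 to 4663. For the interaction, 2 members were called after quantile normalization, both higher, beside 914 higher and 918 lower of all 9743 loci. With a library left out 0 to 1 members were called, beside 1361 to 2103 of all loci. The partner share of Psmb10 with Psmb7 turned to 0.296 points for genotype (adjusted p = 0.8) and to -2.002 for stimulation (adjusted p = 0.102) on summed transcript ends. Other turned values were, on summed ends, Psmb10 by genotype at 0.31 in naive and 0.44 in activated cells, Psme1 at 1.24 and 1.56, Ifngr1 at 0.084 and Psmf1 at 0.41. After quantile normalization they were Psmb1 for KI stimulation (-0.015) and Psmb9 for KIKO stimulation (-0.021, and -0.069 with an equal sum). With each library left out, Psmb9 for KIKO stimulation ranged from -0.16 (without KIKO naive 1) to 0.17, Psmb10 in activated cells by genotype from -0.33 to 0.052 (without KIKO activated 2), and Psmb10 for KIKO stimulation from -0.15 to 0.23 (without KIKO activated 2). Psmb10 had 0.052 and 0.24 in those comparisons with KIKO naive 2 left out too. The cause was not tested. Psmb5 for KI stimulation was called with a pseudocount of 5 (limma adjusted p = 0.0105) and without KIKO naive 3 (0.0309) or KIKO activated 2 (0.0072).

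Same-numbered libraries deviated together weakly at most (r from -0.03 to 0.12, and 7 of 12 comparisons best with their own number). These 12 pool pairs of states within a genotype with pairs of genotypes within a state. Between naive and activated KI libraries of the same number r was 0.055, 0.079 and 0.10. For KIKO libraries it was -0.0035, 0.0925 and 0.033. Within a genotype, every naive library except KIKO naive 1 went best with the activated library of its own number. Between genotypes only KI naive 1 and KI activated 2 went best with the KIKO library of their own number. KIKO naive 2 and KIKO activated 2, the libraries with myeloid markers, also share a number. A shared source of same-numbered libraries was not tested, and the main fit did not pair them. The replicate number was also added as a block, common to both genotypes for the genotype comparisons and within each genotype for the others. With this block the members called were 8, 9, 8, 7 and 1, as without it. All loci called were then 875, 3825, 5911, 4431 and 1834. All loci called between naive genotypes numbered 1009 of 9743 tested, and 553 of only 6485 tested on summed ends. Without KI naive 1, 2 or 3 they numbered 498, 562 and 534 of 9743. Of these 1009, 62.3% were higher, against 44.2% after median-ratio scaling, 49.6% after quantile normalization and 81.0% after rescaling to an equal sum. Between activated genotypes the share was 51.9%, and 64.9% with an equal sum. Rescaling to an equal sum moved the median of all loci by -0.12 for KI stimulation and 0.11 between activated genotypes. A fit of only the libraries compared was not run for the interaction, which uses all groups. Depth is unknown, which limits low values most.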
